A study of Mus musculus with 54 samples.

Results

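Sox17, Foxa1, Foxa2, Gsc, Cer1, Hhex and Lhx1 are the 7 genes described here, out of 20036 in the deposited expression table. They were chosen by name, as regulators of the endoderm and of the anterior primitive streak. The study sequenced polyadenylated RNA from mouse cells of the strain C57BL/6 X 129/SvJ at 3 steps of germ cell induction in culture. These steps are embryonic stem cells (ESC), epiblast-like cells (EpiLC) made from them, and primordial germ cell-like cells (PGCLC) on day 2 of their induction from EpiLC. At each step 9 lines were sampled with 2 libraries, which gives 27 groups and 54 libraries. WT is the wild type. Ovol1KO, Ovol2KO and Ovol3KO are labelled as knockouts of a single Ovol gene, and TKO is a label that the sources used here do not spell out. Ovol2a-Tg, Ovol2b-Tg and Ovol2a/2b-Tg are transgenic lines whose genotype is given as overexpression (OE) of Ovol2a, of Ovol2b and of both, and Cdh1-Tg overexpresses Cdh1. The Ovol genes code for transcription factors with zinc fingers, and Cdh1 for E-cadherin, which joins epithelial cells. The sources used here do not give the background of the transgenic lines, the promoter that drives each transgene or whether a line is 1 clone. Nor do they say that the 2 libraries of a group are separate cultures, so each p-value measures only the spread between these libraries, which may be technical.

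In the gastrulating mouse embryo, epiblast cells enter the primitive streak, and those that pass through its anterior end under strong Nodal signalling become definitive endoderm, axial mesoderm and the node. Sox17, Foxa1 and Foxa2 are transcription factors of the endoderm: Sox17 is an HMG-box protein, and the Foxa proteins are forkhead factors that open closed chromatin. Gsc and Lhx1 are homeodomain proteins of the anterior streak and its axial derivatives. Hhex is a homeodomain repressor of the anterior endoderm, and Cer1 is a secreted antagonist of Nodal and BMP ligands made by the anterior endoderm. Mouse PGCLC are commonly induced with BMP, which also favours posterior mesoderm. In human germ cells SOX17 is a specifier of the lineage, whereas in the mouse it is best known as an endoderm factor.

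The genes lie on 6 chromosomes of the mm10 build (GRCm38), in the GENCODE annotation. Sox17 is at chr1:4490931-4497354, Foxa1 at chr12:57540628-57546916, Foxa2 at chr2:148042877-148046969, Gsc at chr12:104471209-104473330, Cer1 at chr4:82881751-82885148 and Lhx1 at chr11:84518284-84525535, all on the minus strand. Hhex is at chr19:37434810-37440731 on the plus strand. Gm37587 overlaps Sox17 on the opposite strand, and since the sources used here do not give the strand setting of the counting, their reads cannot be told apart. No other gene overlaps the remaining 6.

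The stretches before the starts of Lhx1, Gsc and Cer1 are shown because the courses of these genes differed widely: Lhx1 was read only after ESC, Gsc went down and up again, and Cer1 was hardly read at all. Sequences are from the RefSeq promoter table on GRCm38.p6, 5′ to 3′ on the strand of the gene and end before the annotated start (GENCODE for Lhx1 and Gsc, RefSeq for Cer1), at chr11:84525536-84525784, chr12:104473331-104473486 and chr4:82885152-82885401, all on the minus strand. Capitals mark CG dinucleotides.
Lhx1: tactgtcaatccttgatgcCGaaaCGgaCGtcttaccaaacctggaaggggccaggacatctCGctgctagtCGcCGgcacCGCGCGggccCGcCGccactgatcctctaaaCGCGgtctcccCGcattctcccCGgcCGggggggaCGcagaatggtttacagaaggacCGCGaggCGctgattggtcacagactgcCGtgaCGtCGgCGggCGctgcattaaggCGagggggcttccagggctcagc
Gsc: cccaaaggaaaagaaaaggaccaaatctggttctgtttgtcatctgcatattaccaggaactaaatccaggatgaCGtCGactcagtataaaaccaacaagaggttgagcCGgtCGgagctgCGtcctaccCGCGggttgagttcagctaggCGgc
Cer1: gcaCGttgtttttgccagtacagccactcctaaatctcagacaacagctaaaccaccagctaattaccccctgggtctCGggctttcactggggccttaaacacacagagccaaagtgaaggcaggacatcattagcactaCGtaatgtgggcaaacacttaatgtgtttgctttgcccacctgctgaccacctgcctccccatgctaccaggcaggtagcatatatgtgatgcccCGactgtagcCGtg
The whole table window, from 250 bases before to 50 after the RefSeq start, held 31 CG dinucleotides for Lhx1, 25 for Gsc, 37 for Hhex and 6 for Cer1, against a median of 7.0 over 32851 promoters. Its GC content was 65.7% for Lhx1, 60.3% for Gsc and 51.7% for Cer1, against a median of 52.7%. Of the 7 genes, 6 matched the table, with 8 windows because Foxa2 has several. The letters TGTTTAC, read by forkhead factors, were found on either strand in 1 of the 8 windows, that of Foxa1, 141 bases ahead of its RefSeq start. They occur in 3.65% of all promoters. TAATTA, read by LHX factors, was found in 1 window, that of Cer1, 190 bases before its start, and occurs in 5.29% of promoters. TCACACCT of T-box factors, CCGTTA of OVOL factors, TAATCC of Gsc, and AATCCACA or AATACACA of FOXH1 were in 0 of 8 windows, and in 1.28%, 2.76%, 7.06% and 1.82% of all promoters. A match is only a description of the letters.

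Expression is in transcripts per 1000000 (TPM), a share of the RNA of a library per length of gene, so that genes can be compared within it. In a bulk sample, fewer cells that express a gene and less RNA per cell cannot be told apart. Each TPM value could be traced back to whole reads, and a library held between 2.16 and 26.73 M of them (M, 1000000 reads; median 8.65 M). ESC and EpiLC differed in their markers: naive ESC genes summed to 901.6 to 1396 TPM in ESC and 43.1 to 179 TPM in EpiLC, and formative EpiLC genes to 1123 to 2447 TPM in EpiLC and 74.85 to 336.2 TPM in ESC. In PGCLC the germ cell genes summed to 63.4 to 359.6 TPM, against 14.4 to 49.5 TPM in EpiLC and 214.5 to 429.8 TPM in ESC, so these genes set PGCLC apart from EpiLC but not from ESC. In 8 libraries, the PGCLC of Ovol2a-Tg and all stages of Cdh1-Tg, the cell type tag differs from the title, and the title was used. Reads of the targeted gene remained in the lines labelled as single knockouts, so they do not check those labels. As PGCLC, Ovol2 stood at 5.71 ± 1.37 TPM in the line labelled Ovol2KO and 9.12 ± 3.03 TPM in WT (SD, n = 2), and Ovol3 at 8.55 ± 1.83 TPM in the line labelled Ovol3KO and 9.53 ± 0.191 TPM in WT (SD, n = 2). Ovol1 stood at 1.15 ± 0.284 TPM in the line labelled Ovol1KO and 0.671 ± 0.489 TPM in WT. As EpiLC, Ovol3 was lower in the line labelled Ovol3KO, at 5.73 against 11.68 TPM in WT (limma, BH adjusted p = 0.000405). That log2 difference of -0.91 was not called, and as ESC Ovol3 stood at 10.2 against 8.91 TPM (adjusted p = 0.588). Line names are therefore those of the labels throughout. In TKO, Ovol2 fell to 1.18 ± 0.481 TPM as PGCLC (limma, BH adjusted p = 2.117e-05) but stood at 10.23 against 11.1 TPM in WT as EpiLC (adjusted p = 0.609) and was not called as ESC. In Ovol2KO EpiLC, Ovol2 was called higher than in WT, at 34.14 TPM (adjusted p = 3.878e-07). Ovol2 reached 320.5 to 3296 TPM as group means in the 3 Ovol2 transgenic PGCLC, and Cdh1 562.5 ± 0.923 TPM in Cdh1-Tg against 315.6 ± 5.72 TPM in WT (SD, n = 2). In Cdh1-Tg, Ovol2 was called lower than in WT as PGCLC, at 1.46 TPM (limma, BH adjusted p = 4.713e-05). There it was not called against TKO (adjusted p = 0.686). It was also called lower than in WT as ESC, at 1.65 against 7.81 TPM (adjusted p = 0.000941), but not as EpiLC (10.84 against 11.1 TPM). The part of Ovol2 in the differences of Cdh1-Tg from WT was not tested.

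Lhx1, Gsc and Hhex were the members with substantial expression, and each followed its own course through the 3 stages. Lhx1 was a gene of the PGCLC stage, Hhex was highest in ESC, and Gsc was present in ESC, nearly gone in EpiLC and present again in PGCLC. Sox17 came up in PGCLC at low levels. Foxa2 and Foxa1 stayed at 1.94 TPM or less in every library, and Cer1 at 0.444 TPM or less. Differences were tested with limma on log2(TPM + 1), on the 14416 genes that reached 1 TPM in 2 or more libraries. A gene was called where the Benjamini-Hochberg (BH) adjusted p over all these genes was under 0.05 and the log2 fold change at least 1 in size. Because 1 is added to the TPM, these fold changes understate the ratios of scarce genes. Of the 7 genes, 5 passed this filter, and Foxa1 and Cer1 did not. Lhx1, Sox17 and Foxa2 reached 1 TPM only as PGCLC, in 16, 12 and 2 of 18 libraries. Their tests between stages are therefore not independent of the filter.

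**Figure D1:**
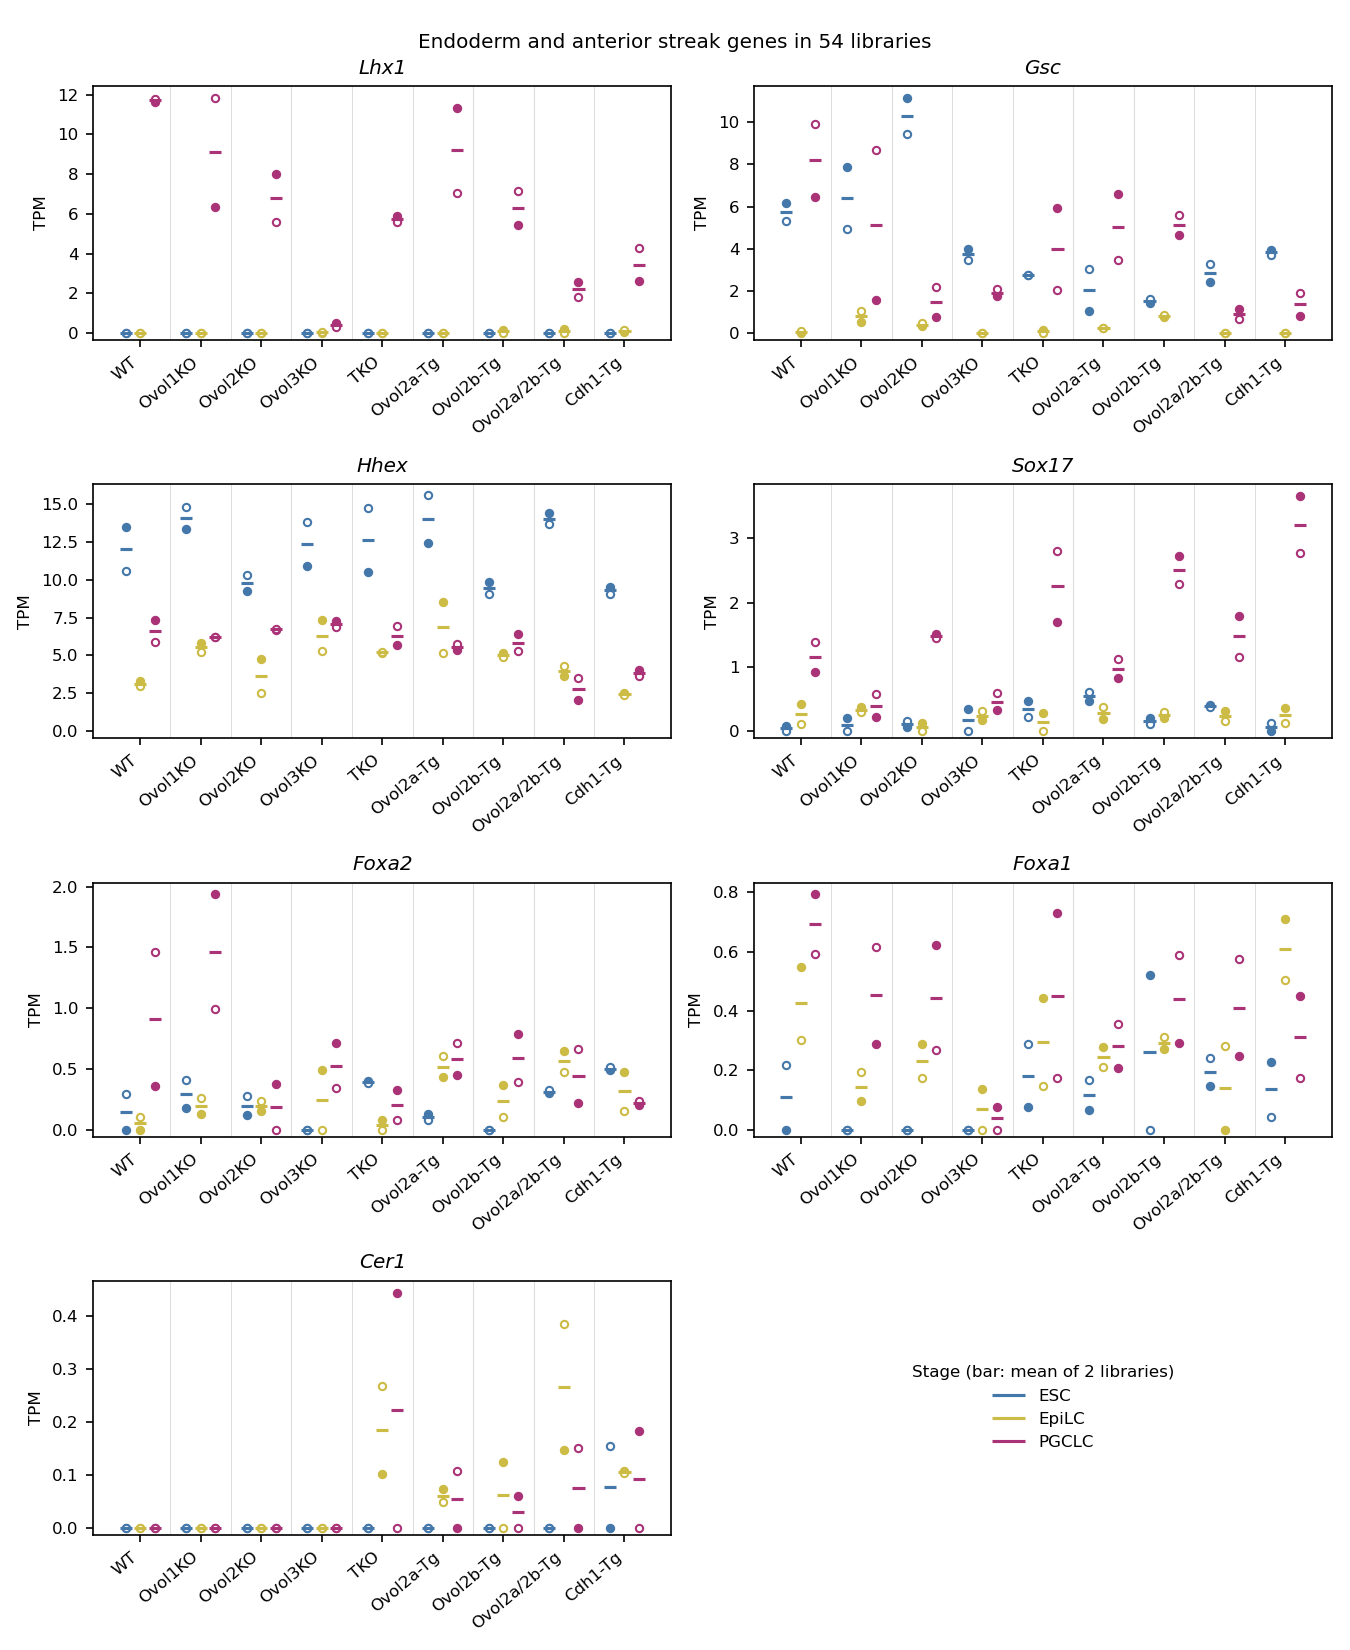
TPM of the 7 genes in each of 54 libraries, 1 panel per gene with its own linear axis from 0. Filled and open points are the 2 libraries of a group, bars their mean, and colours the stages. Lhx1 lies at 0 in ESC and reaches 11.84 TPM in PGCLC, Gsc is lowest in EpiLC in all 9 lines, and Hhex is highest in ESC in all 9 lines.

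Lhx1 had 0 reads in all 18 ESC libraries. As EpiLC it was at 0 in 13 of 18 libraries and no higher than 0.187 TPM in the others, 8 reads in all. As PGCLC it had 1420 reads, and every library held at least 1. The WT PGCLC libraries stood at 11.64 and 11.78 TPM against 0 and 0 TPM in WT EpiLC, at least 107.7-fold higher when EpiLC is set at 3 counts over the group. The fitted log2 fold change was 3.67 ± 0.202 (SE; limma, BH adjusted p = 1.899e-17). Lhx1 passed the filter only through PGCLC libraries, so this p-value is no independent support for the rise. PGCLC lay above EpiLC without overlap in 9 of 9 lines.

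Among the PGCLC lines Lhx1 spanned 0.296 to 11.84 TPM (median 5.75). The libraries of Ovol1KO stood at 6.345 and 11.84 TPM and those of Ovol2a-Tg at 11.34 and 7.056 TPM, so that 1 library of Ovol1KO lay above WT and both of Ovol2a-Tg just below or further below it. Those of Ovol2KO stood at 8.01 and 5.582 TPM, those of Ovol2b-Tg at 5.44 and 7.156 TPM, and those of TKO at 5.913 and 5.586 TPM, all below both WT libraries. Cdh1-Tg gave 2.61 and 4.264 TPM and Ovol2a/2b-Tg 2.585 and 1.806 TPM. Ovol3KO stood far below every other line at 0.4815 and 0.2957 TPM, from 11 reads and 1 read. In the order of means (WT, Ovol2a-Tg, Ovol1KO, Ovol2KO, Ovol2b-Tg, TKO, Cdh1-Tg, Ovol2a/2b-Tg, Ovol3KO) 4 neighbouring pairs did not overlap: WT with Ovol2a-Tg, and each step from TKO downward, of which Cdh1-Tg and Ovol2a/2b-Tg were parted by only 2.61 against 2.585 TPM.

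Against WT PGCLC, Lhx1 fell by 3.20 ± 0.283 on the log2 scale in the line labelled Ovol3KO (SE; limma, BH adjusted p = 4.423e-07), from 11.71 ± 0.0982 to 0.389 ± 0.131 TPM (SD, n = 2). It fell by 2.00 ± 0.283 in Ovol2a/2b-Tg (adjusted p = 7.271e-05) and by 1.54 ± 0.283 in Cdh1-Tg (adjusted p = 0.000545). These 3 calls held when any 1 of the libraries compared was left out. TKO (-0.91, adjusted p = 0.0204) and Ovol2b-Tg (-0.81, adjusted p = 0.0421) passed the p threshold but not that of the fold. Lhx1 in TKO was called with a pseudocount of 0.1 (-1.01, adjusted p = 0.0375), and limma-voom on the recovered reads called it in TKO (-1.09, adjusted p = 0.0134) and in Ovol2b-Tg (-1.11, adjusted p = 0.00481). Ovol2KO (-0.72, adjusted p = 0.0715), Ovol1KO (-0.39, adjusted p = 0.508) and Ovol2a-Tg (-0.35, adjusted p = 0.476) passed neither. The 6 markers of nascent and posterior mesoderm (T, Mixl1, Mesp1, Msgn1, Tbx6, Cdx2) were also lower in these lines: they summed to 1909 and 1861 TPM in WT PGCLC, 176.8 and 73.4 TPM in Ovol3KO, 966.7 and 745.2 TPM in Ovol2a/2b-Tg and 1421 and 1374 TPM in Cdh1-Tg. The sum was below both WT libraries in the other 5 lines as well, at 1089 to 1856 TPM, and Ovol2a-Tg at 1548 and 1340 TPM lay about level with Cdh1-Tg. Of these markers 6 of 6 were called lower in Ovol3KO, 4 of 6 in Ovol2a/2b-Tg and 1 of 6, Mixl1, in Cdh1-Tg, where Cdx2 was called higher. Of all tested genes, 12.8% were called in either direction in Ovol3KO, 7.62% in Ovol2a/2b-Tg and 9.86% in Cdh1-Tg. In Ovol3KO other markers were also far from WT: naive ESC genes summed to 502.9 and 460 TPM against 216.4 and 209.1 TPM, formative EpiLC genes to 300.7 and 386 TPM against 150.1 and 179.6 TPM, and germ cell genes to 359.6 and 347.2 TPM against 158 and 164.4 TPM. The part of these cell states in the Lhx1 values was not tested.

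Gsc was the only member called in both steps of WT. WT ESC had 6.175 and 5.324 TPM, WT EpiLC 0 and 0.1024 TPM (0 and 1 read), and WT PGCLC 6.459 and 9.913 TPM. It fell by 2.68 ± 0.383 on the log2 scale from ESC to EpiLC (SE; limma, BH adjusted p = 2.495e-07) and rose by 3.10 ± 0.383 from EpiLC to PGCLC (adjusted p = 1.344e-08). All 18 ESC libraries held at least 1 TPM (1.05 to 11.16 TPM), no EpiLC library held more than 4 reads, and 8 EpiLC libraries had 0. The dip in EpiLC appeared without overlap in 9 of 9 lines on both sides. Whether ESC or PGCLC held more Gsc differed by line: PGCLC lay above ESC in 3 lines, below it in 4, and overlapped it in 2.

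As PGCLC, Gsc separated the lines less cleanly than Lhx1, because its libraries scattered. Ovol2KO stood at 0.7505 and 2.179 TPM, Ovol3KO at 1.743 and 2.078 TPM, Ovol2a/2b-Tg at 1.121 and 0.6681 TPM and Cdh1-Tg at 0.815 and 1.902 TPM, all below both WT libraries. TKO gave 5.936 and 2.025 TPM and Ovol2b-Tg 4.657 and 5.588 TPM, also below WT, while Ovol2a-Tg at 6.606 and 3.45 TPM overlapped it. The 2 libraries of Ovol1KO differed most, at 1.565 TPM (2 reads) and 8.686 TPM (26 reads). No pair of neighbours in the order of the 9 lines was free of overlap. Gsc fell by 2.26 ± 0.532 on the log2 scale in Ovol2a/2b-Tg (SE; limma, BH adjusted p = 0.00434), by 1.98 ± 0.532 in Cdh1-Tg (adjusted p = 0.00904), by 1.94 ± 0.532 in the line labelled Ovol2KO (adjusted p = 0.0141) and by 1.64 ± 0.532 in the line labelled Ovol3KO (adjusted p = 0.0210). The fold changes of TKO (-0.98), Ovol1KO (-0.86), Ovol2a-Tg (-0.63) and Ovol2b-Tg (-0.56) did not pass. Limma-voom on the recovered reads called Gsc lower in TKO (-1.65, adjusted p = 0.0263).

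Only the Gsc call of Ovol2a/2b-Tg held with each library left out. Without WT replicate 2 the adjusted p was 0.104 for Ovol2KO, 0.124 for Ovol3KO and 0.0755 for Cdh1-Tg. It was 0.116 without Ovol2KO replicate 1, 0.0872 without Cdh1-Tg replicate 1, and 0.0799 and 0.0613 without Ovol3KO replicate 1 or 2. Conversely, without Ovol1KO replicate 2 the difference of that line was -1.82 (adjusted p = 0.0285). In the 18 PGCLC libraries Gsc rested on 2 to 94 reads (median 10.5).

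In ESC, where Lhx1 had no read, Gsc also varied between lines, from 10.31 ± 1.2 TPM in Ovol2KO to 1.51 ± 0.132 TPM in Ovol2b-Tg (SD, n = 2). The libraries of Ovol2KO stood at 11.16 and 9.464 TPM, above every other ESC library, but its difference from WT (6.175 and 5.324 TPM) was not called (0.74, limma, BH adjusted p = 0.0822). Gsc fell in Ovol2b-Tg (1.417 and 1.604 TPM) by 1.43 ± 0.273 on the log2 scale (SE; limma, BH adjusted p = 0.00173). It fell in Ovol2a-Tg (1.046 and 3.034 TPM) by 1.23 ± 0.273 (adjusted p = 0.00411), a call lost without Ovol2a-Tg replicate 1 (-0.74, adjusted p = 0.0807). TKO (-0.85, adjusted p = 0.0424) and Ovol2a/2b-Tg (-0.82, adjusted p = 0.0466) passed the p threshold only. Ovol2KO thus had the highest mean of Gsc of the 9 lines as ESC, and as PGCLC a mean of 1.46 ± 1.01 TPM (SD, n = 2) against 8.19 ± 2.44 TPM in WT.

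Hhex was the one member read well at all stages, at 8 or more reads in every library. It spanned 9.04 to 15.6 TPM in ESC, 2.42 to 8.54 TPM in EpiLC and 2.08 to 7.37 TPM in PGCLC. WT gave 13.51 and 10.59 TPM as ESC, 3.292 and 2.986 TPM as EpiLC and 7.374 and 5.861 TPM as PGCLC. From ESC to EpiLC it fell by 1.65 ± 0.203 on the log2 scale in WT (SE; limma, BH adjusted p = 1.218e-08), and ESC lay above both later stages without overlap in 9 of 9 lines. Between EpiLC and PGCLC the WT difference of 0.87 ± 0.203 passed the p threshold (adjusted p = 0.000366) and not that of the fold. PGCLC lay above EpiLC in 6 lines, overlapped it in 2, and lay below it in Ovol2a/2b-Tg, the line with the lowest PGCLC level.

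As PGCLC, Hhex was similar in 7 lines and lower in Cdh1-Tg and Ovol2a/2b-Tg. The means of 7 lines lay between 5.55 ± 0.273 TPM in Ovol2a-Tg and 7.08 ± 0.273 TPM in Ovol3KO, the line in which Lhx1 was lowest. Cdh1-Tg stood apart at 4.052 and 3.678 TPM, and Ovol2a/2b-Tg below it at 2.081 and 3.543 TPM. Hhex fell by 1.02 ± 0.191 on the log2 scale in Ovol2a/2b-Tg (SE; limma, BH adjusted p = 0.000763), close to the fold threshold: without WT replicate 1 the value was -0.87 and without Ovol2a/2b-Tg replicate 1 it was -0.74. Cdh1-Tg (-0.64, adjusted p = 0.0152) passed the p threshold only. Against WT EpiLC, Ovol2a-Tg (8.538 and 5.187 TPM, log2 difference 0.89, adjusted p = 0.0135) and Ovol3KO (7.346 and 5.289 TPM, log2 difference 0.81, adjusted p = 0.0134) did the same, and no ESC difference in Hhex was called.

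Sox17 stayed at or under 0.609 TPM in ESC and 0.427 TPM in EpiLC, and spanned 0.224 to 3.66 TPM (median 1.42) in PGCLC. PGCLC lay above EpiLC without overlap in 8 of 9 lines, all but Ovol1KO. WT gave 0.4271 and 0.1174 TPM as EpiLC and 0.9258 and 1.383 TPM as PGCLC, a log2 difference of 0.76 ± 0.195 that passed the p threshold (limma, BH adjusted p = 0.00105) but not that of the fold. Sox17 passed the filter only through PGCLC libraries, so this p-value is no independent support for the rise. As PGCLC its order differed from those of Lhx1 and Gsc. Cdh1-Tg was highest at 3.661 and 2.772 TPM, followed by Ovol2b-Tg at 2.721 and 2.289 TPM and TKO at 1.702 and 2.813 TPM. Ovol3KO at 0.3234 and 0.5957 TPM and Ovol1KO at 0.2243 and 0.5747 TPM lay below both WT libraries.

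No Sox17 difference between lines was called as PGCLC. Cdh1-Tg (0.97 ± 0.235, adjusted p = 0.00432) and Ovol2b-Tg (0.71 ± 0.235, adjusted p = 0.0333) passed the p threshold of the same limma fit. With limma-voom on the recovered reads, the differences of Cdh1-Tg (1.34, adjusted p = 0.00486), Ovol2b-Tg (1.11, adjusted p = 0.0255), TKO (1.05, adjusted p = 0.0488) and Ovol3KO (-1.53, adjusted p = 0.0181) all passed both thresholds. With a pseudocount of 0.1 only Cdh1-Tg (1.41, adjusted p = 0.0249) and Ovol3KO (-1.18, adjusted p = 0.0464) did, and TKO and Ovol2b-Tg were not called. As ESC, Ovol2a-Tg stood at 0.4747 and 0.6088 TPM (19 and 28 reads) against 0.0885 and 0 TPM in WT, a difference of 0.56 (adjusted p = 0.0229) on the log2(TPM + 1) scale. This difference was called with a pseudocount of 0.1 (2.22, adjusted p = 0.0427) and with limma-voom (2.42, adjusted p = 0.0169).

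Foxa2 held at most 18 reads in any library. WT PGCLC stood at 0.3555 and 1.46 TPM and WT EpiLC at 0 and 0.1014 TPM, a log2 difference of 0.80 (limma, BH adjusted p = 0.00309) which the fold threshold left uncalled. Foxa2 reached 1 TPM in only 2 libraries, WT PGCLC replicate 2 (1.46 TPM) and Ovol1KO PGCLC replicate 1 (1.938 TPM). It passed the filter through these, so the p-value is no independent support for a rise in WT PGCLC. The highest pair was that of Ovol1KO PGCLC, at 1.938 and 0.993 TPM, which overlapped WT. Its only line difference to pass the p threshold was in EpiLC, where Ovol2a/2b-Tg held 0.6503 and 0.4711 TPM (log2 difference 0.57, adjusted p = 0.0288). The PGCLC calls of Foxa2 depended on the setting. Without WT replicate 1, WT is the single library at 1.46 TPM (11 reads) that helped Foxa2 pass the filter. Differences from that library were -1.07 in Ovol2KO, -1.04 in TKO and -1.01 in Cdh1-Tg, which are no independent support. Limma-voom with all libraries, that one included, called Foxa2 lower in TKO (-2.3, adjusted p = 0.0343) and Cdh1-Tg (-1.87, adjusted p = 0.0464). Foxa1 was also read near the limit, at 0.793 TPM or less, with its highest PGCLC mean in WT (0.693 ± 0.142 TPM, SD, n = 2) and its lowest in Ovol3KO (0.0378 ± 0.0534 TPM). Cer1 had 21 reads in all 54 libraries: 2 in ESC, 12 in EpiLC and 7 in PGCLC. It had 0 reads in every library of WT and of the lines labelled Ovol1KO, Ovol2KO and Ovol3KO, and all of its reads came from TKO and the 4 transgenic lines. Depth was not equal: libraries of the lines without Cer1 reads held 2.16 to 17.49 M reads and those of the others 2.46 to 26.73 M. The part of depth in this split was not tested. When all genes were tested without a filter on low values, no comparison of Foxa1 or Cer1 was called.

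**Figure D2:**
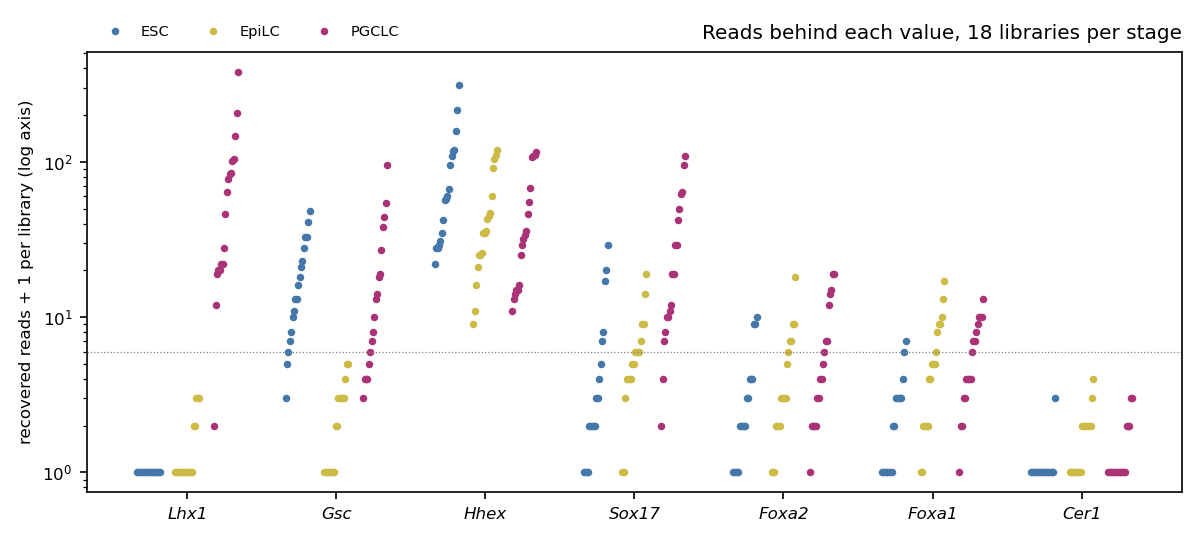
Recovered reads plus 1 per library on a log axis for each gene, 18 libraries per stage in order of size. The dotted line marks 5 reads. Hhex lies above it in every library, Cer1 lies below it in every library, and Gsc lies below it in all 18 EpiLC libraries.

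The counts of calls have to be read against all genes. In WT, 2 of the 5 tested members, Gsc and Hhex, were called lower in EpiLC than in ESC, where 20.6% of all tested genes were called in either direction. In the next step 2 of the 5, Lhx1 and again Gsc, were called higher in PGCLC than in EpiLC, where 21.1% were called. Lhx1 passed the filter only through PGCLC libraries, so its call there is no independent support. Each line was compared with the same WT libraries as PGCLC, so these comparisons share their controls. Of the 5 members, 3 were called in Ovol2a/2b-Tg (all tested genes: 7.62%), 2 each in Ovol3KO (12.8%) and Cdh1-Tg (9.86%), 1 in Ovol2KO (8.18%), and 0 in Ovol1KO (0.666%), TKO (10.5%), Ovol2a-Tg (3.43%) and Ovol2b-Tg (8.3%). All 8 calls were toward lower expression. The 0 of TKO became 1 (Lhx1) with a pseudocount of 0.1 and 4 (Sox17, Lhx1, Gsc and Foxa2) with limma-voom. The shares of all genes called under these 2 settings are not given here, so the percentages above are no background for these counts. Foxa2 passed the filter partly through a WT PGCLC library, so its call is no independent support. The median log2 fold change of the 5 members lay below 0 in every line. It was -0.56 in Ovol3KO against -0.12 for all genes, -1.02 in Ovol2a/2b-Tg against 0.03, and -0.61 in TKO against 0.03. In Ovol2KO it was -0.64 against 0.04, in Cdh1-Tg -0.64 against 0.06, and in Ovol1KO -0.39 against 0.002. Ovol2a-Tg gave -0.21 against 0.02 and Ovol2b-Tg -0.21 against 0.03.

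**Figure D3:**
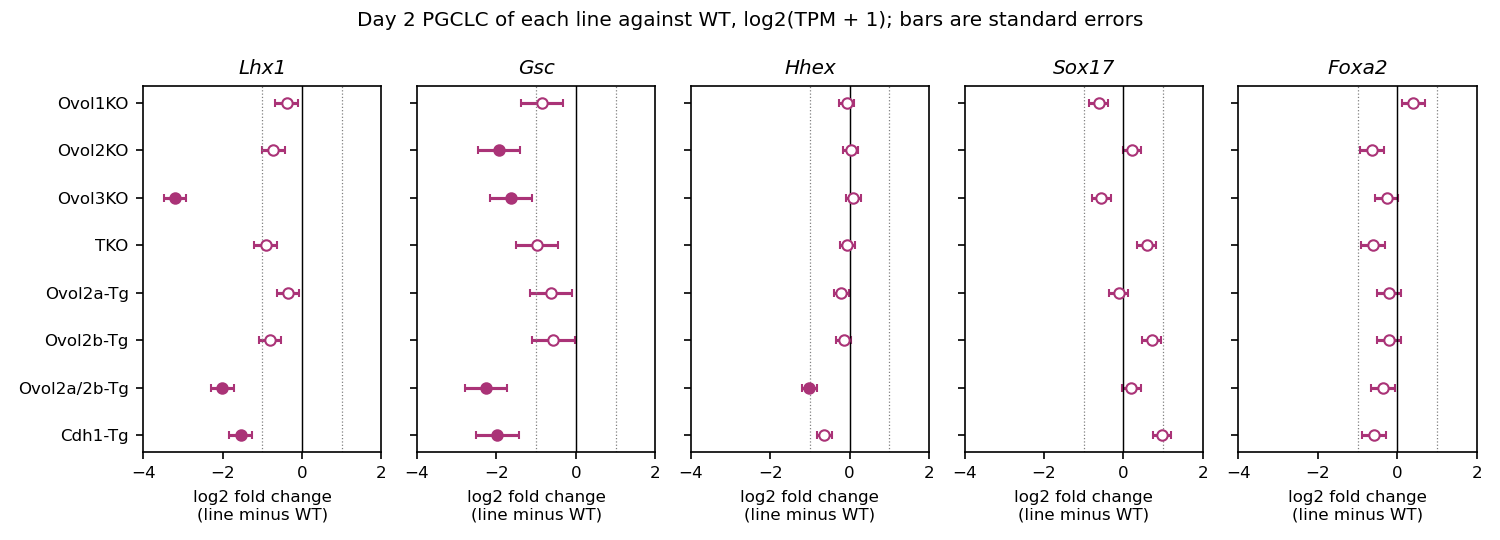
Log2 fold change of each line against WT as day 2 PGCLC, on the log2(TPM + 1) scale, for the 5 tested genes. Bars are standard errors, filled points are called, and dotted lines mark a log2 fold change of 1 in size. Lhx1 in Ovol3KO lies farthest from 0 at -3.20, all 8 filled points lie below -1, and Sox17 in Cdh1-Tg lies at 0.97.

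As EpiLC, 0 of the 5 members were called in any line. The shares of all tested genes called were 0.486% in Ovol1KO, 1.42% in Ovol2KO, 2.85% in Ovol3KO, 2.3% in TKO, 2.06% in Ovol2a-Tg, 1.67% in Ovol2b-Tg, 4.5% in Ovol2a/2b-Tg and 6.38% in Cdh1-Tg. Gsc passed the p threshold of limma in Ovol1KO (0.5163 and 1.054 TPM, adjusted p = 0.0153) and Ovol2b-Tg (0.7395 and 0.8431 TPM, adjusted p = 0.00369), on 4 and 8 reads. As ESC, 1 member, Gsc, was called in Ovol2a-Tg (4.95%) and 1, again Gsc, in Ovol2b-Tg (5.56%). None was called in Ovol1KO (0.541%), Ovol2KO (3.36%), Ovol3KO (1.85%), TKO (4.08%), Ovol2a/2b-Tg (4.31%) or Cdh1-Tg (6.4%). On the log2(TPM + 1) scale, differences between lines were thus called in PGCLC for 3 members, and earlier for Gsc. Other settings also called Sox17 and Foxa2 in PGCLC, Gsc, Hhex and Foxa2 in EpiLC, and Sox17 in ESC.

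Whether the step from EpiLC to PGCLC itself differed from that of WT was tested as an interaction. The rise of Lhx1 was smaller in the line labelled Ovol3KO by a log2 difference of -3.24 ± 0.286 (SE; limma, BH adjusted p = 4.446e-11), and that of Gsc by -1.56 ± 0.542 (adjusted p = 0.0206), so 2 of 5 members were called where 16.1% of all genes were. In Ovol2KO the rise of Gsc was smaller by -2.34 ± 0.542 (adjusted p = 0.00205), 1 of 5 members where 7.71% of all genes were called. TKO had 0 calls (9.41% of all genes), with Lhx1 at -0.91 (adjusted p = 0.0190), and Ovol1KO had 0 (0.576%). The Gsc call of Ovol3KO was lost with a pseudocount of 0.1 (-1.51, adjusted p = 0.159), with limma-voom (-0.56, adjusted p = 0.756) and without WT EpiLC replicate 1, WT PGCLC replicate 2 or Ovol3KO PGCLC replicate 1. The other 2 calls held in each of these settings.

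Set against TKO as PGCLC, 1 line, Ovol2a/2b-Tg, had a called member on the log2(TPM + 1) scale. Lhx1 fell by 1.09 ± 0.283 on the log2 scale (SE; limma, BH adjusted p = 0.00708), from 5.75 ± 0.231 to 2.20 ± 0.550 TPM (SD, n = 2), which is 1 of 5 members where 8.37% of all genes were called. The call was lost without Ovol2a/2b-Tg replicate 2 (-0.91, adjusted p = 0.0722). Hhex in the same comparison passed the p threshold at -0.96 (adjusted p = 0.00112). Cdh1-Tg (2.3% of all genes), Ovol2KO (0.985%), Ovol2a-Tg (3.29%) and Ovol2b-Tg (0.354%) had 0 called members, with Lhx1 at -0.63, 0.19, 0.56 and 0.10. Limma-voom also called Sox17 lower in Ovol2a-Tg than in TKO (-1.38, adjusted p = 0.00127).

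The Nodal pathway, which drives anterior streak genes in the embryo, was followed with 13 genes: the ligand Nodal, its co-receptor Tdgf1, receptors, Smads, Foxh1, the antagonists Lefty1 and Lefty2, and Skil and Smad7. In WT, 0 of 13 were called higher and 1, Lefty1, lower in PGCLC than in EpiLC, where 21.1% of all tested genes were called. As PGCLC, 4 genes, Nodal, Tdgf1, Lefty1 and Lefty2, were called lower and 2, Acvr1b and Smad3, higher than in WT in each of Ovol2KO, TKO, Cdh1-Tg, Ovol2b-Tg and Ovol2a/2b-Tg. Nodal stood at 94.4 ± 24.3 TPM in WT, 8.22 ± 0.316 TPM in Cdh1-Tg and 17.2 ± 4.20 TPM in Ovol2KO (SD, n = 2). Ovol3KO, with the lowest Lhx1, differed: Nodal was not called there, Lefty1 rose by 1.74 ± 0.284 (limma, BH adjusted p = 0.000170) and Lefty2 by 1.12 ± 0.204 (adjusted p = 0.000402), and Skil was called lower. Ovol2a-Tg had 1 gene called, Nodal, lower, and Ovol1KO had 0.

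A list of 14 further regulators of endoderm and streak was followed as well. In WT PGCLC 7 were called higher than in EpiLC (T, Fgf8, Mixl1, Eomes, Gata6, Gata4 and Nog) and 1, Otx2, lower. Of all tested genes, 21.1% were called in this step. Eomes, the T-box factor that starts the endoderm programme in the streak, stood at 52.7 ± 12.8 TPM in WT PGCLC. It fell to 1.83 ± 0.659 TPM in Ovol2KO, a log2 fold change of -4.245 ± 0.313 (SE; limma, BH adjusted p = 2.457e-07), and to 4.21 ± 0.654 TPM in TKO. In Ovol3KO Eomes was not called, and 6 of 14 genes were called lower: Mixl1 (-4.80 ± 0.361), T (-3.65 ± 0.346), Gata6 (-2.97 ± 0.268), Fgf8, Gata4 and Nog. The endoderm factor Gata6 was called higher than in WT (10.7 ± 4.11 TPM) in Ovol2KO, TKO, Ovol2b-Tg and Cdh1-Tg, at 26.8 to 40.5 TPM, and lower in Ovol1KO and Ovol3KO. Cxcr4, a chemokine receptor of definitive endoderm and other migrating cells, was called higher in all lines but Ovol1KO and Ovol3KO, from 1.28 ± 0.823 TPM in WT to 17.8 ± 2.55 TPM in TKO. In total 7 of 14 were called in Ovol2KO (4 higher, against 8.18% of all tested genes in either direction) and 8 in TKO (4 higher, against 10.5%). Ovol2a-Tg had 4 (2 higher, against 3.43%), Ovol2b-Tg 6 (4 higher, against 8.3%) and Ovol2a/2b-Tg 8 (3 higher, against 7.62%). Cdh1-Tg had 7 (4 higher, against 9.86%), Ovol3KO 7 (1 higher, against 12.8%) and Ovol1KO 1 (0 higher, against 0.666%).

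Of 5 WNT inhibitors (Dkk1, Sfrp1, Sfrp5, Frzb and Shisa2), Dkk1 and Frzb were called higher and Sfrp1 and Shisa2 lower in WT PGCLC than in EpiLC. In that step 21.1% of all tested genes were called. Dkk1 stood at 0 TPM in WT EpiLC and 20.6 TPM in WT PGCLC. It fell to 2.30 TPM in Ovol3KO (-2.65 ± 0.279, limma, BH adjusted p = 2.594e-06) and rose to 44.1 TPM in Ovol2a/2b-Tg (1.13 ± 0.279, adjusted p = 0.00585), so that in the latter line it moved opposite to Lhx1, Gsc and Hhex. Sfrp1 was called higher than in WT in all lines but Ovol1KO, and Frzb in Cdh1-Tg.

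**Figure D4:**
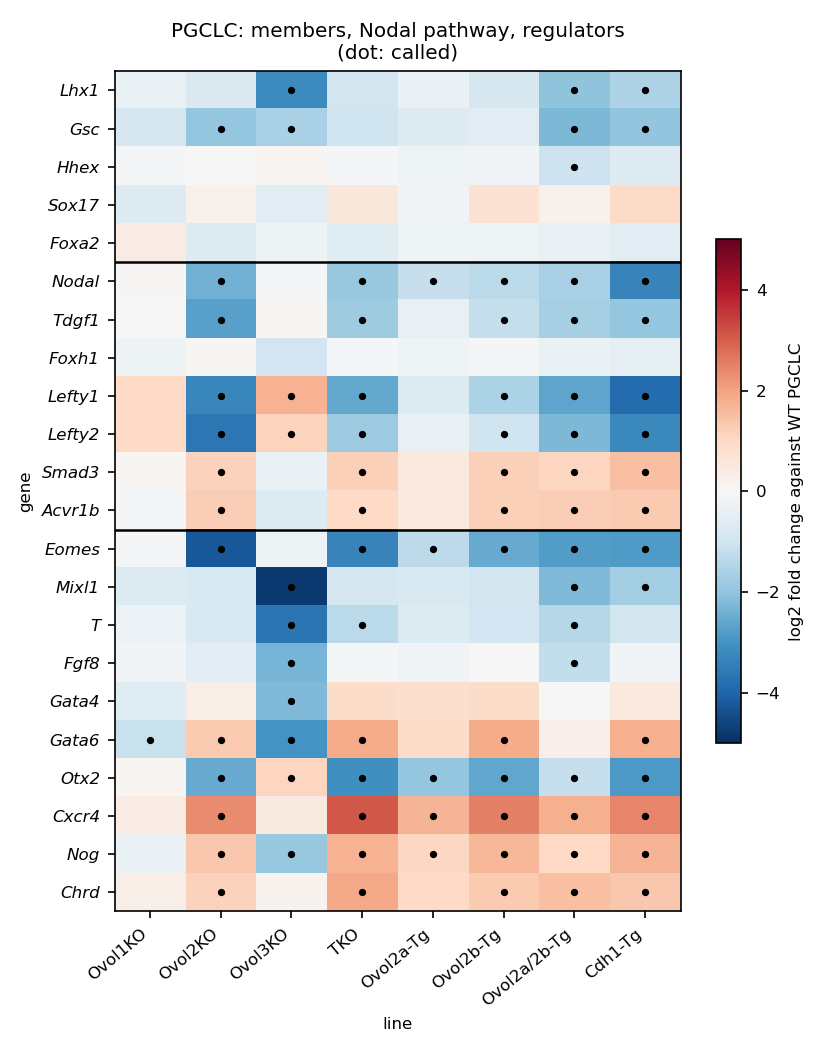
Log2 fold change against WT PGCLC, on the log2(TPM + 1) scale, of the 5 tested members (top), 7 Nodal pathway genes (middle) and 10 streak and endoderm regulators (bottom) in 8 lines. Dots mark called differences. In Ovol3KO Lhx1, Gsc, Mixl1 and T are low with Eomes near 0, and Eomes is lowest in Ovol2KO.

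Markers of other endoderm and of the node were read beside the members. The 8 visceral endoderm markers summed to 0.354 to 2.30 TPM in ESC, 2.87 to 12.5 TPM in EpiLC and 1.02 to 5.87 TPM in PGCLC. Their defining genes Ttr, Afp and Hnf4a never passed 0.69, 0.369 and 0.3 TPM, and 2 of the 8 could be tested. The 8 markers of primitive and parietal endoderm summed to 319.3 to 663 TPM in ESC, 131.6 to 205 TPM in EpiLC and 162.2 to 411.6 TPM in PGCLC, with 4 or 5 of 8 at 1 TPM or more in each ESC group. In PGCLC, 0 of 8 were called higher and 3 lower in Ovol3KO (Gata4, Gata6 and Pdgfra), and 3 were called higher in each of TKO, Ovol2b-Tg and Ovol2a/2b-Tg, 4 in Cdh1-Tg and 2 in Ovol2KO. Of all tested genes, 12.8% were called in either direction in Ovol3KO, 10.5% in TKO and 8.3% in Ovol2b-Tg. The share was 7.62% in Ovol2a/2b-Tg, 9.86% in Cdh1-Tg and 8.18% in Ovol2KO. Among the 6 node and notochord markers, Noto and Shh never passed 0.235 and 0.703 TPM, so the sum of 64.9 to 1284 TPM in PGCLC came largely from T. The part of these cell types in the values of the members was not tested.

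The genes most like each member over the 27 group means of log2(TPM + 1) were sought among 11868 genes with a highest group mean of at least 5 TPM, as a description over groups that share lines and stages. Lhx1 was followed most closely by the apelin receptor gene Aplnr (Pearson r = 0.9903), by Mixl1 (0.9764) and by Pcdh7 (0.9742), all at 0 in some groups and highest in WT PGCLC. For Sox17 they were Dlx2 (0.9503), Ctso (0.9496) and Kif26b (0.9477), which peaked in TKO or Cdh1-Tg PGCLC. Hhex was followed by Nid2 (0.9026), Slc16a9 (0.8985) and Sp2 (0.8981), all highest in an ESC group, and Gsc by Slc36a1 (0.8804), Rerg (0.8755) and Cdk19 (0.8727). Foxa2 had Apln (0.8244), Arhgef26 (0.7357) and Tmprss2 (0.7049), all highest in Ovol1KO PGCLC as Foxa2 was. For Foxa1 they were Ccnj, Tubb5 and Lypd6 (0.8249 to 0.8163), and for Cer1 P3h3, 3632451O06Rik and Dpysl4 (0.7122 to 0.6876), on values of few reads. Between members, over the means of the 9 PGCLC lines, Lhx1 and Gsc gave r = 0.673 and Lhx1 and Sox17 r = 0.099, also as a description. Over the 27 groups the order of these pairs was the reverse, at 0.384 for Lhx1 and Gsc and 0.769 for Lhx1 and Sox17.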

How the data were processed

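Per the labels' protocols, total RNA came from RNeasy Micro columns and was made, after poly(A) selection, into NEBNext Ultra Directional libraries with 12 PCR cycles. HISAT2, featureCounts, edgeR and the mm10 build are named, per the submitters' processing notes, without versions, annotation or a setting for strand. The authors deposited TPM, a value per gene and library. Whole reads were recovered from them for 17973 genes, with 100.0% of values whole within 0.01 reads. The unit of each gene was chosen to make its values whole within that tolerance, so this share is no separate check. The reads of a gene are the smallest whole numbers that fit its values. Groups come from the sample titles.

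Linear models were fitted to log2(TPM + 1) by limma 3.58.1 (R 4.3.3), with trend and robust shrinkage, in fits of 18 libraries within a stage (9 residual degrees of freedom) or all 54 between stages (27), over 35 comparisons with BH adjustment over 14416 genes. The code was tested on simulated data. The alternatives were a pseudocount of 0.1, no filter, a filter at 5 TPM, quantile scaling, limma-voom on recovered reads, other libraries in the fit, a replicate block and leaving out each library. Replicate pairs varied beyond read sampling, with a chi-square per degree of freedom of 1.05 to 10.87 (median 2.41).

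All 7 members and the targeted genes are named, with the 3 genes most like each member and, of each list (Nodal pathway, endoderm and streak regulators, WNT inhibitors, and markers of ESC, EpiLC, germ cells, primitive, parietal and visceral endoderm, node and notochord, and mesoderm), up to 4 called genes with the largest changes; further names in a list were chosen after their values were seen. Members and lists were chosen with earlier results of these data known. Of the Nodal pathway list, 1 gene of the Nodal pathway list is not reported here.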

Additional observations from a re-analysis of the deposited data

Results flagged for a closer look

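In 3 results the step from EpiLC to PGCLC of a line labelled as a knockout differed from that of WT by the test of the difference itself (limma interaction term, BH adjusted over all tested genes). They are Lhx1 in Ovol3KO (-3.24 ± 0.286, adjusted p = 4.446e-11), Gsc in Ovol2KO (-2.34 ± 0.542, adjusted p = 0.00205) and Gsc in Ovol3KO (-1.56 ± 0.542, adjusted p = 0.0206), each on the log2 scale with its SE. Lhx1 in Ovol3KO PGCLC rests on 11 reads and 1 read against 76 and 103 in WT. Gsc there rests on 17 and 3 reads, and in Ovol2KO on 4 and 3, against 18 and 37 in WT.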

How the results depend on the processing

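The numbers of member calls were 4 over the WT steps, 8 for lines with WT as PGCLC, 0 as EpiLC, 2 as ESC, 1 with TKO and 3 for differences of the step. No filter, a filter at 5 TPM and quantile scaling kept each number within 1.5 times, and no result changed direction where it was called. A pseudocount of 0.1 gave 7 for the WT steps, 4 as EpiLC and 2 with TKO. Limma-voom on the recovered reads gave 7 for the WT steps, 17 as PGCLC, 1 as EpiLC and 3 with TKO, and other libraries in the fit gave 2 with TKO. Limma-voom also changes the model, and the cause of its further calls was not tested. The shares of all genes called under the alternatives are not given here. With 1 library left out the numbers ran from 4 to 5 for the WT steps, 6 (without WT replicate 2) to 10 (without WT replicate 1) as PGCLC, 0 to 1 as EpiLC (1 without Ovol3KO or Ovol2a-Tg replicate 2, in Hhex), 1 to 2 as ESC (1 without Ovol2a-Tg replicate 1), 1 to 2 with TKO (2 without either TKO library) and 2 to 5 for the step (5 without WT PGCLC replicate 1, which adds Foxa2 in Ovol2KO and TKO). A lone library is then assumed to vary like the other groups. The replicate block gave 4, 8, 0, 2, 1 and 3, without the unnumbered Ovol2b-Tg EpiLC pair. The numbers do not pair libraries: 23 correlations of same-numbered differences with WT ran from -0.13 to 0.2, with 2 over 0.1. Depth limits Cer1, Foxa2 and Foxa1 most, at medians of 0, 3.5 and 4 reads per PGCLC library, then Gsc at 10.5 and Sox17 at 18.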
